A study of Mus musculus with 6 samples.

Results

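The genes described here encode the mitochondrial carriers of solute carrier family 25. They were all genes whose symbol in the array annotation begins with Slc25a, leaving out the citrate carrier gene Slc25a1 and the acylcarnitine carrier gene Slc25a20. The annotation gave 42 such genes among 18193 genes with a probe set of their own, and each was followed by the probe set with the highest mean signal over the arrays. Of the 42 genes, 35 had a mean signal high enough to be tested, and 7 did not. The measurements came from hearts of male mice on Affymetrix arrays, 6 arrays in 3 groups of 2: a high FASN transgenic line, a low FASN transgenic line and age-matched B6 control mice. Both lines carried a transgene for fatty acid synthase (FASN), the enzyme that makes palmitate, driven by the alpha-MHC promoter of heart muscle, and the strain label of all 3 groups is C57BL/6J. With 1 line per FASN level, a difference by level and any other difference between the lines cannot be told apart. The ages are not given, the tissue label calls the control hearts transgenic too, and the labels do not say whether 2 arrays of a group are 2 animals, so p-values measure a spread that may be technical.

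Carriers of this family sit for the most part in the inner mitochondrial membrane, where each protein exchanges or imports a small set of metabolites between the cytosol and the matrix. The adenine nucleotide carriers and the phosphate carrier feed ATP synthase and export the ATP it makes, so they are among the most abundant membrane proteins of heart mitochondria. Other members move dicarboxylates and amino acids for the malate-aspartate shuttle, or bring in cofactors, nucleotides, iron and glutathione that the matrix cannot make for itself. A few have left this pattern: Slc25a17 is a peroxisomal carrier and Slc25a46 an outer membrane protein that takes part in mitochondrial fission and fusion.

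The transgene's gene followed the labels. Fasn read 2268 and 2104 in the high FASN line, 462 and 481 in the low FASN line, and 213 and 187 in B6 control hearts, in arbitrary signal units. All 7 heart muscle markers on the list (Myh6, Tnnt2, Tnni3, Actc1, Myl2, Ryr2 and Pln) were tested and bright, with a summed signal of 203611 and 182266 in the high FASN line, 147886 and 150488 in the low FASN line and 166843 and 160496 in controls. Against control 5 of the 7 were called higher in the high FASN line, with a median log2 difference of 0.24. In the low FASN line 1 was called lower, with a median of -0.13. These values depended on how the arrays were scaled. With quantile normalization, median centring and cyclic loess, 1, 0 and 6 were called higher in the high FASN line. The medians there were 0.071, 0.21 and 0.23, and in the low FASN line 0.010, -0.14 and 0.016. Of the 5 adipocyte markers with a probe set of their own, the 4 tested ones were all called higher in each line. The 5 summed to 7024 and 6619 in the high FASN line, 3519 and 3364 in the low FASN line and 1342 and 1183 in controls. The 4 smooth muscle markers summed to 11437 and 11173 in the high FASN line, 11380 and 11074 in the low FASN line and 5196 and 5017 in controls. Of the tested markers of other cells, 4 of 6 of fibroblasts and 2 of 5 of endothelium were higher in the high FASN line, and 5 and 2 in the low FASN line. Lymphocyte markers summed to 536 and 548 in the high FASN line, 2245 and 2285 in the low FASN line and 109 and 194 in controls. The 3 tested ones were all called higher in each line, and Ighm alone read 1711 and 1729 in the low FASN line. Cd79a and Cd3e lay under the limit for testing, with lower means in the low FASN line than in controls. Lung and airway markers summed to 2840 and 3109, 267 and 226, and 165 and 165 in the same order. Against control Scgb1a1, Scgb3a2 and Bpifa1 were called higher in the high FASN line, and Scgb1a1 alone in the low FASN line. Sftpc and Sftpb were dim and not called. Of 5 macrophage markers 1 was lower in the high and 1 higher in the low FASN line, and of 2 tested skeletal muscle markers 1 was higher in the high FASN line, and 1 higher and 1 lower in the low FASN line. Of the 3 hepatocyte markers, Alb and Apoa1 lay under the limit for testing, and Ttr was dim and not called. In whole heart RNA fewer cells of a type and less RNA per cell cannot be told apart, and the part of these cell types in the carrier results below was not tested.

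Set against B6 controls, the high FASN line showed few changes among the carriers. Of the 35 tested genes, 1 was higher (Slc25a51), 3 were lower (Slc25a16, Slc25a33 and Slc25a39) and 31 were not called (limma fitted to all 22519 tested probe sets, Benjamini-Hochberg adjusted p below 0.05). That is 11.4% of the carriers called, against 14.4% of all tested probe sets, 8.18% higher and 6.18% lower. In the low FASN line 2 carriers were higher (Slc25a17 and Slc25a36) and 6 lower (Slc25a26, Slc25a28, Slc25a29, Slc25a33, Slc25a39 and Slc25a46). The share called was 22.9%, against 24.3% of all tested probe sets, 13.5% higher and 10.8% lower. Between the lines 4 carriers read higher in the high FASN line (Slc25a3, Slc25a4, Slc25a28 and Slc25a46) and 2 lower (Slc25a33 and Slc25a36), or 17.1% against a background of 18.6%, 9.69% higher and 8.87% lower. In each comparison the share of carriers called lay near the background, so the counts are not a result about the family as a whole, and what follows is about single carriers. The median log2 difference of the tested carriers was -0.0078 in the high FASN line and -0.044 in the low FASN line against control, and 0.014 between the lines, where the medians of all tested probe sets were 0.037, 0.018 and 0.0055. The counts rest on few arrays: 2 carriers were called in the high FASN line without B6 control array 2, 4 in the low FASN line without either of its arrays or without B6 control array 2, and 2 between the lines without either low FASN array.

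**Figure D1:**
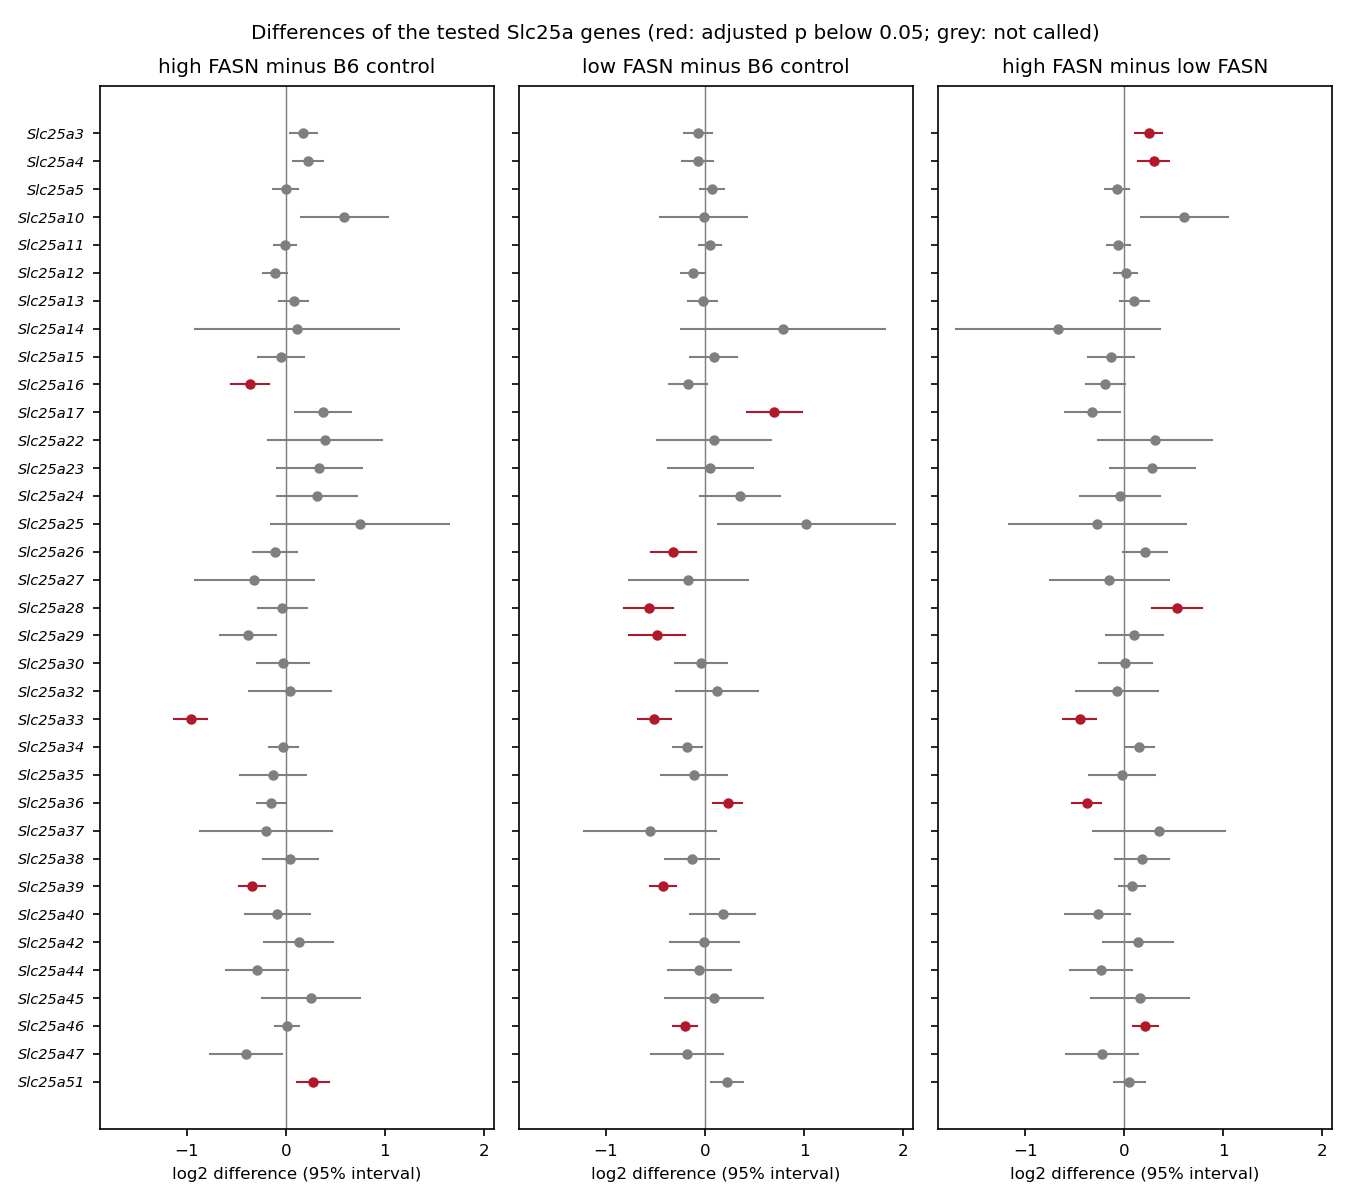
Log2 difference (x axis, on the log2(signal + 16) scale) of each of the 35 tested Slc25a genes (rows) in the 3 comparisons, with its 95% interval. Red points passed an adjusted p of 0.05 and grey points did not. Slc25a33 lies left of 0 in all 3 panels, and intervals are widest for the dim genes Slc25a14 and Slc25a25.

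The pyrimidine nucleotide carrier gene Slc25a33 had the lowest adjusted p of the family in the high FASN line. Its protein brings pyrimidine nucleotides into the matrix, where they serve the copying and reading of mitochondrial DNA. Signals were 629 and 645 in the high FASN line, 908 and 842 in the low FASN line, and 1232 and 1275 in B6 controls. The 3 groups did not overlap, and the high FASN arrays were the lowest. The difference from control was -0.96 ± 0.0739 (SE) on the log2 scale in the high FASN line, 1.94-fold lower (limma, adjusted p = 5.03e-05), and -0.51 in the low FASN line, 1.42-fold lower (adjusted p = 0.00111). Both differences use the same 2 control arrays. The direct difference between the lines uses no control array and was -0.45 ± 0.0739 (limma, adjusted p = 0.00354). Its SE and p-value do draw on the control arrays, since the spread was estimated from all 6 arrays. The gene has 1 probe set on the array, so no second reading was available.

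Slc25a36 encodes the other pyrimidine nucleotide carrier. It read 1580 and 1731 in the high FASN line, 2100 and 2202 in the low FASN line, and 1842 and 1824 in controls. The groups again did not overlap, but here the low FASN arrays were the highest. The high FASN line minus the low FASN line gave -0.38 on the log2 scale (limma, adjusted p = 0.0045), and higher in the low FASN line than in control by 0.23 (adjusted p = 0.0308). Its difference in the high FASN line against control, -0.15, was not called (adjusted p = 0.172). The call in the low FASN line was lost when any of its own or the control arrays was left out (adjusted p between 0.0888 and 0.192), and that between the lines without low FASN array 2 (adjusted p = 0.0566). A second tested probe set of the gene was not called, with log2 differences of -0.019 and -0.020 against control. Another was called lower in the high FASN line by -0.80 (adjusted p = 0.0364), at 176 and 130 in that line, 294 and 191 in the low FASN line, and 250 and 305 in controls, so the probe sets of Slc25a36 do not give one direction. Averaged over all its probe sets, the gene's difference in the low FASN line was 0.00073 and not called (limma, adjusted p = 0.996). Testing with no filter or no intensity trend also ended the call in the low FASN line, and no intensity trend that between the lines.

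Slc25a39, which is needed for glutathione import into mitochondria, was called lower than control in each line too. It read 4786 and 5332 in the high FASN line, 4727 and 4834 in the low FASN line, and 6453 and 6367 in controls. The lines overlapped each other and both lay below the controls. The log2 differences were -0.34 ± 0.0596 in the high FASN line (limma, adjusted p = 0.00515) and -0.42 ± 0.0596 in the low FASN line (adjusted p = 0.00097), against the same control arrays. The lines differed by 0.079, which was not called (adjusted p = 0.401, 95% interval -0.054 to 0.213). Of its 5 probe sets 4 were tested. All 4 were called lower in the low FASN line, by -0.42 to -0.58, and 2 of them in the high FASN line. The followed probe set carries the array maker's mark for probes that may also bind other transcripts, as do 2 of the other 3. Averaged over all its probe sets, the gene's difference in the high FASN line was -0.28 and not called (adjusted p = 0.112).

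The promoters of these 2 genes are shown because both genes were called lower in each line. Each is 300 bases of the RefSeq annotation on GRCm38.p6, 5′ to 3′ along the gene, from 250 bases before the annotated start to 50 after it. Slc25a33 lies on the minus strand at chr4:149774218-149774517 and Slc25a39 on the minus strand at chr11:102407468-102407767. Capitals mark matches on either strand to 6 short motifs: the E-box CACGTG, the ETS site CCGGAAG, the GC box GGGCGG, the CCAAT box CCAAT, the TATA box TATAAA and the half-site AAGGTCA of oestrogen-related receptors. No marked matches overlap.
Slc25a33: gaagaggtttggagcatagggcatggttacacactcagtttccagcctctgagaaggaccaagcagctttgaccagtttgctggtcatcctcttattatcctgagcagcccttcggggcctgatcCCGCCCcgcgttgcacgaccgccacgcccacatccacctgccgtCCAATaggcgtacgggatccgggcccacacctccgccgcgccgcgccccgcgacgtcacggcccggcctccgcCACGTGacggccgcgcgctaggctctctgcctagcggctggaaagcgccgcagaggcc
Slc25a39: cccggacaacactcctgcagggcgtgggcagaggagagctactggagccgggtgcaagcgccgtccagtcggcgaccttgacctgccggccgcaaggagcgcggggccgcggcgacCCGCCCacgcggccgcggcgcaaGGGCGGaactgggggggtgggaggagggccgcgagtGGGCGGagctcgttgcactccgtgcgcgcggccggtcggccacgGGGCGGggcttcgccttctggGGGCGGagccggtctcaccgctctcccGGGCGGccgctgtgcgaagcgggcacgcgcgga
The Slc25a33 window holds 1 E-box, from base -8 to -3 with the annotated start as base 0, 1 CCAAT box and 1 GC box. The Slc25a39 window holds 6 GC boxes and none of the other motifs. Only the GC box is common to both. It was found in 27 of the 32 carrier genes with a window (84.4%). By window, it was in 35 of the 41 carrier windows (85.4%) and in 35.7% of all 32851 windows. G and C made up 66.0% of the Slc25a33 window and 77.3% of the Slc25a39 window, against a median of 52.7% over all windows. The E-box was found in 6 of the 32 carrier genes, Slc25a36 among them. By window, it was in 7 of the 41 carrier windows (17.1%) and in 7.15% of all windows. A match is a run of letters in this window and says nothing of binding.

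**Figure D2:**
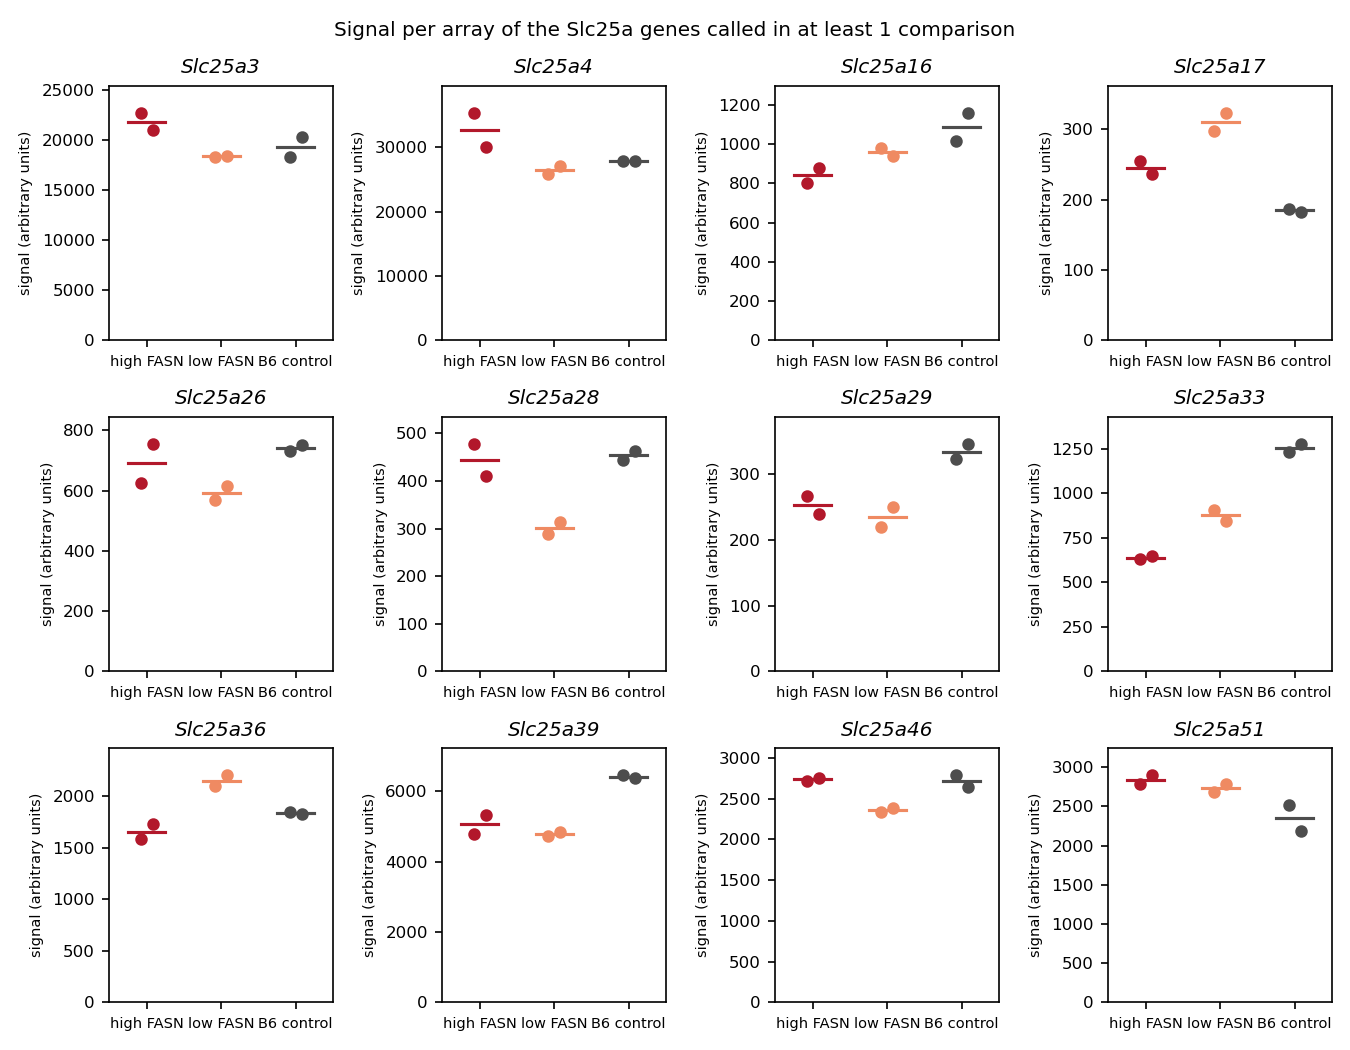
Signal per array (y axis, arbitrary units, from 0) of the 12 Slc25a genes called in at least 1 comparison. Points are arrays, 2 a group, and bars are group means. Slc25a33 steps up from high FASN through low FASN to B6 control, while the lines overlap for Slc25a39 and Slc25a28 is lowest in the low FASN arrays.

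The other iron and glutathione carriers are Slc25a28 and Slc25a37, the mitoferrins that bring iron into the matrix, and Slc25a40, a close relative of Slc25a39. Slc25a28 read 477 and 410 in the high FASN line, 288 and 314 in the low FASN line, and 444 and 464 in controls. The low FASN arrays lay below all others, and the high FASN arrays overlapped the controls. The low FASN line differed from control by -0.57 ± 0.111 on the log2 scale, 1.48-fold lower (limma, adjusted p = 0.0052), and the high from the low FASN line by 0.53 (adjusted p = 0.0102). The call between the lines was lost without low FASN array 1 (adjusted p = 0.0814). Slc25a37, the mitoferrin that developing red cells depend on, read 180 and 261 in the high FASN line, 124 and 223 in the low FASN line, and 327 and 193 in controls. Its groups overlapped, and its log2 difference of -0.55 in the low FASN line was not called (adjusted p = 0.214). Slc25a40 differed from control by -0.087 and 0.18 in the high and the low FASN line, neither called. Of the 7 erythroid markers listed, only 4 had a probe set of their own. Probe sets annotated to several genes were not read, so the rest of the list is not covered. The 4 were dim and summed to 135 and 213 in the high FASN line, 86.6 and 109 in the low FASN line and 56.5 and 80.9 in controls. Only Alas2 of these was bright enough to be tested, and it was called higher in the high FASN line. The part of red cells in these values was not tested.

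Of the 6 tested adenine nucleotide and phosphate carriers, 2 were called between the lines at the deposited scaling, Slc25a4 and Slc25a3, both higher in the high FASN line. Slc25a4, the heart and muscle form of the ADP/ATP carrier, read 35302 and 30071 in the high FASN line, 25938 and 27055 in the low FASN line, and 27932 and 27863 in controls. Slc25a3, the phosphate carrier, read 22702 and 21006 in the high FASN line, 18338 and 18452 in the low FASN line, and 18302 and 20366 in controls. For both genes the high FASN arrays lay above all the others. The lines differed by 0.30 ± 0.0693 for Slc25a4 (limma, adjusted p = 0.0166) and by 0.25 ± 0.0613 for Slc25a3 (adjusted p = 0.0218), both higher in the high FASN line. Against control neither was called in the high FASN line, where the log2 differences were 0.22 for Slc25a4 (adjusted p = 0.0614) and 0.18 for Slc25a3 (adjusted p = 0.0879). In the low FASN line both stood near control, at -0.075 and -0.070. Each call between the lines was lost without low FASN array 1 or low FASN array 2 (adjusted p from 0.0868 to 0.144 over both genes), and that of Slc25a3 also without high FASN array 1 (adjusted p = 0.058).

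These 2 differences depended on how the arrays were scaled. With quantile normalization they turned to -0.030 for Slc25a4 (adjusted p = 0.505) and -0.039 for Slc25a3 (adjusted p = 0.675). With cyclic loess they were 0.13 and 0.11, and with median centring 0.28 and 0.23, and none of these passed. No scaling moved the median of all tested probe sets by as much as 0.1. The heart muscle markers gave these values beside them: against the low FASN line 5 of 7 were higher in the high FASN line, with a median log2 difference of 0.38 at the deposited scaling, which was 0.37 with median centring and 0.22 with cyclic loess, again with 5 of 7 called higher. With quantile normalization it was 0.054, with 3 higher and 1 lower. The 18 hybridization controls, added to every sample, were higher in the high FASN line by a median of 0.27. The part of heart muscle content and of array scaling in these 2 carriers was not tested beyond these values. Slc25a28, Slc25a33 and Slc25a36 kept their calls between the lines under all 3 other scalings.

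**Figure D3:**
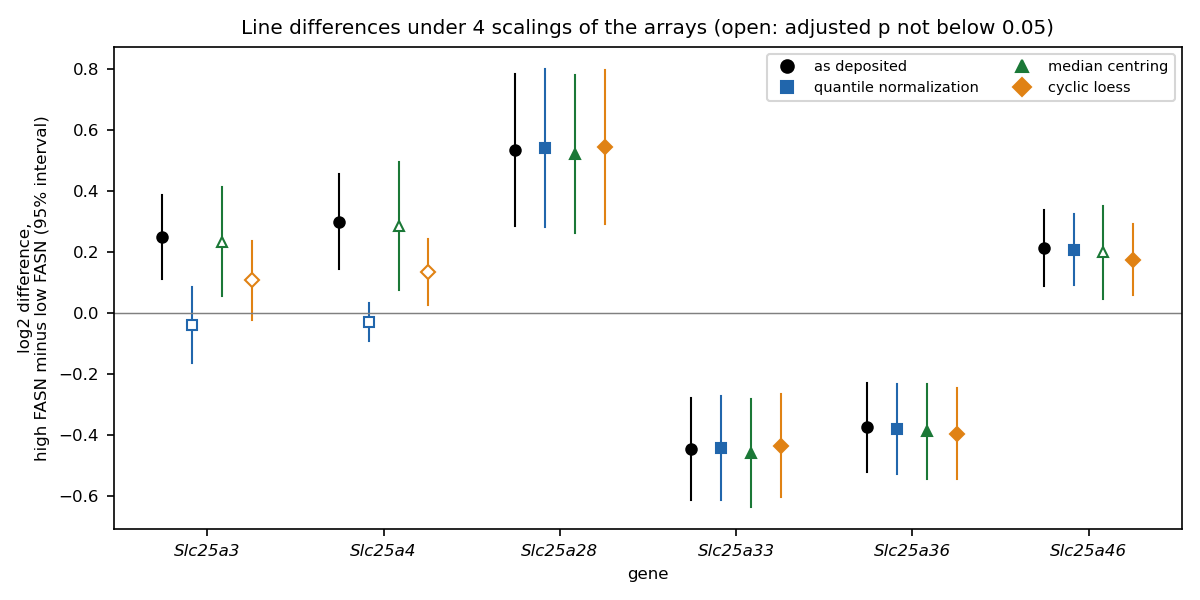
Log2 difference, high FASN minus low FASN (y axis), of the 6 Slc25a genes called between the lines, under the deposited scaling and 3 others, with 95% intervals. Open symbols did not pass an adjusted p of 0.05. Slc25a3 and Slc25a4 move from 0.25 and 0.30 to just under 0 with quantile normalization, while Slc25a28, Slc25a33 and Slc25a36 hardly move.

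The promoters of Slc25a3 and Slc25a4 are shown because both genes were called between the lines at the deposited scaling. Neither call held under the 3 other scalings. Slc25a3 lies on the minus strand at chr10:91123918-91124217 and Slc25a4 on the minus strand at chr8:46211013-46211312 of GRCm38.p6, with the same window and the same motifs in capitals.
Slc25a3: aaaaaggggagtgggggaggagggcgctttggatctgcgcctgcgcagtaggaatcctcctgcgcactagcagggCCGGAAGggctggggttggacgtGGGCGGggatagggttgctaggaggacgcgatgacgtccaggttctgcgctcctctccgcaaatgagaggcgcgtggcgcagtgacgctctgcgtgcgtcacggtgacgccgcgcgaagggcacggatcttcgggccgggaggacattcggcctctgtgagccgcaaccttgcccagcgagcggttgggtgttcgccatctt
Slc25a4: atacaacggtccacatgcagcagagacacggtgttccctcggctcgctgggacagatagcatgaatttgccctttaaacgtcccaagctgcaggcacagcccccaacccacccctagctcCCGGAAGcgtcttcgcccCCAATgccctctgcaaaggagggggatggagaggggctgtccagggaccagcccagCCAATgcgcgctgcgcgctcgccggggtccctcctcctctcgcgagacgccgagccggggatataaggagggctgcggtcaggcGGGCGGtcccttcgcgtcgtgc
Both windows hold 1 ETS site, from base -175 to -169 in Slc25a3 and from base -130 to -124 in Slc25a4. The motif was found in 6 of the 32 carrier genes (18.8%). By window, it was in 6 of the 41 carrier windows (14.6%) and in 8.86% of all windows. Both also hold 1 GC box, and Slc25a4 holds 2 CCAAT boxes. The half-site AAGGTCA, found in 4.72% of all windows, was in neither.

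The other probe sets of Slc25a4 did not all follow the first. The second brightest read 30961 and 28755 in the high FASN line, 23176 and 24238 in the low FASN line, and 25333 and 24184 in controls, and was called higher in the high FASN line both against control (0.27, limma adjusted p = 0.00968) and against the low FASN line (0.33, adjusted p = 0.00312). That probe set carries the mark for probes that may bind other transcripts. The third was not called between the lines, at 0.075 (adjusted p = 0.355). The fourth differed by 0.33 and was not called (adjusted p = 0.0676).

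Slc25a5, a paralogue of Slc25a4 and the ADP/ATP carrier found in most tissues, gave 2 answers on its 8 probe sets. The followed probe set read 10065 and 10300 in the high FASN line, 10750 and 10646 in the low FASN line, and 10692 and 9707 in controls, with a log2 difference of -0.00085 in the high FASN line (95% interval -0.125 to 0.123) and 0.070 in the low FASN line (adjusted p = 0.397). A further 5 probe sets were not called in any comparison either. The remaining 2, the fifth and the seventh by brightness, were chosen for description after their values were seen. The fifth read 1995 and 2017 in the high FASN line, 2920 and 3075 in the low FASN line, and 3311 and 3617 in controls. The seventh read 1229 and 1284 in the high FASN line, 1815 and 2026 in the low FASN line, and 2172 and 2602 in controls. In both the 3 groups did not overlap, and the high FASN arrays were the lowest. The differences were -0.78 and -0.91 in the high FASN line (limma, adjusted p = 5.87e-05 and 0.000244), -0.21 and -0.31 in the low FASN line (adjusted p = 0.037 and 0.0352), and -0.58 and -0.60 between the lines (adjusted p = 0.000444 and 0.00228). Both carry the mark for probes that may bind other transcripts, as do the followed probe set and 3 of the other 5, so the mark does not set them apart. Which transcript each reads cannot be settled from the signals.

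**Figure D4:**
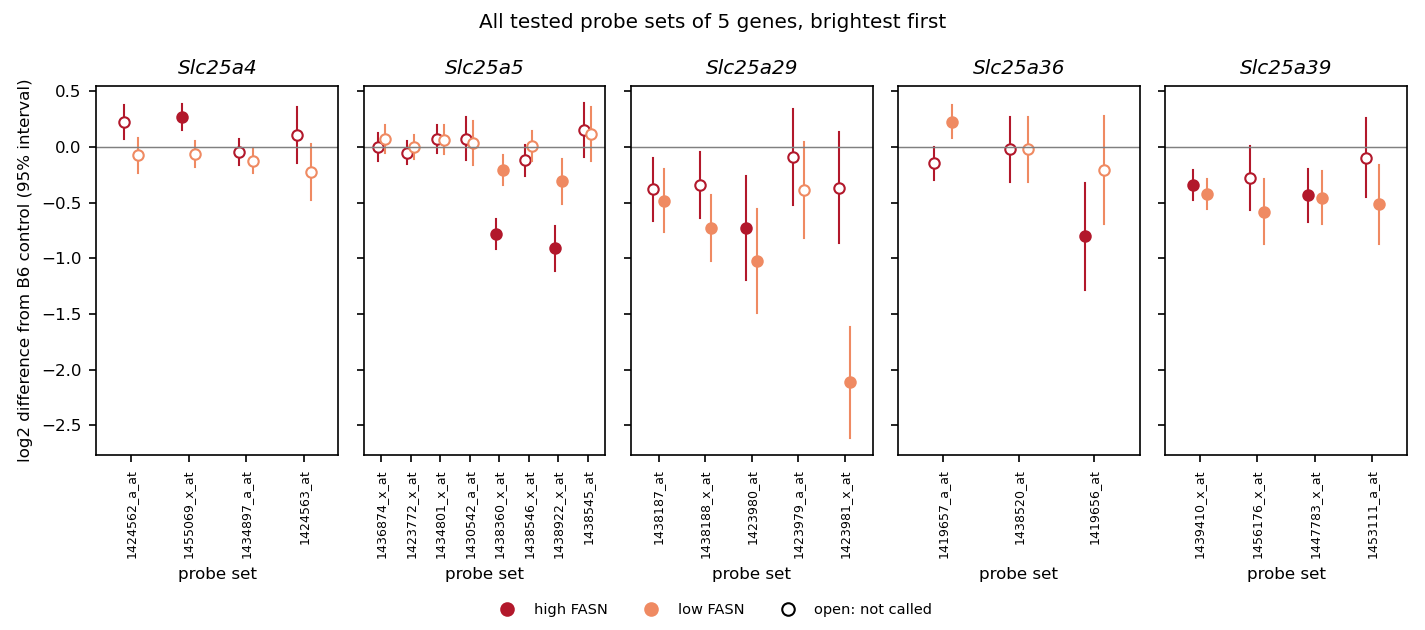
Log2 difference from B6 control (y axis) of every tested probe set of 5 Slc25a genes, brightest first, in the high FASN line (red) and the low FASN line (orange), with 95% intervals. Open points were not called. In Slc25a5, 6 probe sets lie near 0 and 2 are lower in both lines, and in Slc25a29 the 5 probe sets span -0.39 to -2.12 in the low FASN line.

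The calcium-regulated ATP-Mg/phosphate carriers adjust the size of the adenine nucleotide pool in the matrix. Of these Slc25a23, Slc25a24 and Slc25a25 were tested, with log2 differences of 0.31 to 0.75 in the high FASN line and 0.053 to 1.02 in the low FASN line against control, none called. Slc25a25 was dim and its controls lay far apart, with 68.8 and 71.3 in the high FASN line, 123 and 61.9 in the low FASN line, and 61.3 and 17.9 in controls. Its 95% interval in the low FASN line, 0.13 to 1.92, was wide (adjusted p = 0.0939). The testis form Slc25a31 and the ATP-Mg/phosphate carrier relative Slc25a41 lay under the limit for testing. Of all 6 tested adenine nucleotide and phosphate carriers, with Slc25a3, Slc25a4 and Slc25a5, 0 were called against control in either line with limma. An unadjusted p below 0.05 was found for 2 in the high FASN line (Slc25a3 and Slc25a4) and 1 in the low FASN line (Slc25a25), all higher. Over all 22519 tested probe sets, 3770 higher and 2714 lower had such a p in the high FASN line, and 4528 and 3668 in the low FASN line. The counts are therefore not a result about these carriers.

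None of the 5 tested carriers of dicarboxylates, aspartate and glutamate was called in any comparison with limma, though Slc25a10 read highest in the high FASN line. Slc25a11, the oxoglutarate carrier, and Slc25a12, the aspartate/glutamate carrier of heart and brain, make the mitochondrial side of the malate-aspartate shuttle, with Slc25a13 as the liver form of Slc25a12. Slc25a11 read 5989 and 6124 in the high FASN line, 6165 and 6451 in the low FASN line, and 6234 and 5947 in controls, and its groups overlapped. Its difference from control was -0.0078 in the high FASN line (95% interval -0.124 to 0.108) and 0.051 in the low FASN line (-0.065 to 0.166). Slc25a12 read 3965 and 3858 in the high FASN line, 3951 and 3799 in the low FASN line, and 4326 and 4118 in controls. Both lines lay below the controls, by -0.11 (adjusted p = 0.214) and -0.12 (adjusted p = 0.129), which did not pass. Slc25a13 differed from control by 0.079 and -0.024, not called. Slc25a10, the dicarboxylate carrier, which is abundant in fat and liver, read 234 and 336 in the high FASN line, 175 and 183 in the low FASN line, and 210.0 and 155 in controls. The high FASN arrays were above the rest, but neither the difference from control (0.59, adjusted p = 0.0758) nor that between the lines (0.61, adjusted p = 0.0589) passed, and their 95% intervals were 0.153 to 1.03 and 0.168 to 1.04. The adipocyte markers given above were also highest in the high FASN line, and their part in Slc25a10 was not tested. The glutamate carrier gene Slc25a22 was far apart in the high FASN arrays, at 234 and 467, against 255 and 275 in the low FASN line and 277 and 221 in controls, and was not called. In all, 0 of 5 tested genes of the group passed in any of the 3 comparisons with limma. An unadjusted p below 0.05 was found for 1 in the high FASN line, 1 in the low FASN line and 1 between the lines. Over all 22519 tested probe sets, 3770 higher and 2714 lower had such a p in the high FASN line. The counts were 4528 and 3668 in the low FASN line and 3775 and 3570 between the lines. The group's counts are therefore not a result about these carriers.

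Among the carriers of amino acids, Slc25a29 was lower in the low FASN line. Its protein carries basic amino acids and was first described as a relative of the acylcarnitine carrier. The followed probe set read 266 and 240 in the high FASN line, 219 and 250 in the low FASN line, and 322 and 345 in controls. The lines overlapped and both lay below the controls. Differences from control were -0.38 in the high FASN line (limma, adjusted p = 0.0787) and -0.48 in the low FASN line (adjusted p = 0.0215). The call was lost without low FASN array 1 or 2 or B6 control array 1 or 2 (adjusted p from 0.0506 to 0.143). All 5 probe sets of the gene were tested, and 4 were called lower in the low FASN line, by -0.48 to -2.12, so that the mean over them gave -0.95 (adjusted p = 0.00152). The largest difference belonged to the dimmest probe set, which read 96.7 and 115 in the high FASN line, a dim 17.3 and 23.2 in the low FASN line, and 128 and 154 in controls. That probe set also differed between the lines, by 1.75 (adjusted p = 0.001). The other 4 were also higher in signal in the high FASN line, by 0.10 to 0.39, and were not called. The dimmest and the second brightest probe set, both called lower in the low FASN line, carry the mark for probes that may bind other transcripts. The ornithine carrier gene Slc25a15, the glycine carrier gene Slc25a38 and the branched-chain amino acid carrier gene Slc25a44 were not called in any comparison, with log2 differences between -0.29 and 0.18.

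The carriers of cofactors held most of the remaining calls. Slc25a17, the peroxisomal carrier of coenzyme A and flavin and nicotinamide cofactors, read 254 and 236 in the high FASN line, 298 and 322 in the low FASN line, and 187 and 183 in controls. The groups did not overlap, and the low FASN arrays were the highest. The difference from control was 0.70 ± 0.124 on the log2 scale in the low FASN line, 1.62-fold (limma, adjusted p = 0.00334), and 0.38 in the high FASN line, not called (adjusted p = 0.0755). The line difference was -0.32, also not called (adjusted p = 0.105). A second probe set was too dim to test, with 4.26 and 32.7 in the high FASN line, 4.63 and 5.59 in the low FASN line, and 18.5 and 22.4 in controls. The mean over both probe sets turned the low FASN difference to -0.044 (adjusted p = 0.911). Slc25a16, which is linked to coenzyme A in the matrix, read 801 and 878 in the high FASN line, 978 and 940 in the low FASN line, and 1013 and 1156 in controls. It was lower than control in the high FASN line by -0.36 (adjusted p = 0.0219), a call lost without high FASN array 1 (adjusted p = 0.0869) and without B6 control array 2 (adjusted p = 0.163). Slc25a42, the coenzyme A carrier, was not called, at 177 and 211 in the high FASN line, 166 and 182 in the low FASN line, and 164 and 187 in controls, with differences of 0.13 (95% interval -0.217 to 0.481) and -0.0077 (-0.356 to 0.341).

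Slc25a51, the NAD carrier, read 2779 and 2897 in the high FASN line, 2685 and 2783 in the low FASN line, and 2515 and 2188 in controls. Both lines lay above the controls, by 0.27 in the high FASN line (limma, adjusted p = 0.0337) and 0.22 in the low FASN line (adjusted p = 0.0523), so that only the first was called; the line difference was 0.054 (adjusted p = 0.652). That call was lost without high FASN array 2 (adjusted p = 0.0809), without low FASN array 1 or 2 (adjusted p = 0.0675 each), and without B6 control array 2, where the difference was 0.17 (adjusted p = 0.218). A second probe set of the gene pointed the other way, at -0.26 in the high FASN line (adjusted p = 0.106). Averaged over all its probe sets, the gene's difference in the high FASN line was 0.0039 and not called (limma, adjusted p = 0.984). Median centring, no filter, no intensity trend and the use of only the 4 arrays compared also ended that call. The S-adenosylmethionine carrier gene Slc25a26 read 626 and 754 in the high FASN line, 569 and 615 in the low FASN line, and 732 and 753 in controls. It was lower in the low FASN line by -0.32 (adjusted p = 0.0446), a call lost without any 1 of the low FASN or control arrays (adjusted p from 0.0997 to 0.225), and its second probe set stood at 0.05. The folate carrier gene Slc25a32 was not called.

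The rest of the family holds uncoupling-type carriers and members whose cargo is less certain. Slc25a46 read 2724 and 2760 in the high FASN line, 2340 and 2389 in the low FASN line, and 2788 and 2650 in controls. The low FASN arrays lay below all others. The low FASN line differed from control by -0.20 (limma, adjusted p = 0.0269) and the high from the low FASN line by 0.21 (adjusted p = 0.0267). Its second probe set was called in the same comparisons, at -0.26 and 0.29. The call against control was lost without any 1 of the low FASN or control arrays (adjusted p from 0.0604 to 0.165), and that between the lines without low FASN array 1 or 2 (adjusted p = 0.163 and 0.118). Quantile normalization also ended the call against control (adjusted p = 0.0598), median centring that between the lines (adjusted p = 0.0756), and testing with no filter or no intensity trend both of them (adjusted p from 0.0536 to 0.154). Slc25a14, Slc25a27, Slc25a30, Slc25a34, Slc25a35, Slc25a45 and Slc25a47 were not called. Slc25a14, the dimmest gene that was tested, read 58.3 and 29.5 in the high FASN line, 80.0 and 72.9 in the low FASN line, and 15.3 and 76.2 in controls, so a difference of 0.78 in the low FASN line did not pass (adjusted p = 0.253). Just under the limit for testing lay Slc25a53, with 22.8 and 34.8 in the high FASN line, 50.8 and 53.4 in the low FASN line, and 52.1 and 41.6 in controls. The 7 genes under it (Slc25a2, Slc25a18, Slc25a31, Slc25a41, Slc25a48, Slc25a53 and Slc25a54) read 2.38 to 75.5 in the high FASN line, 2.38 to 53.4 in the low FASN line and 2.43 to 52.1 in controls.

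Across the family, 12 of the 35 tested genes were called in at least 1 comparison and 23 in none. The matching share over all tested probe sets was not counted, so the 12 are not a result about the family. For the 23 called in none, most differences were small. Within 0.5 on the log2 scale were 21 in the high FASN line, 20 in the low FASN line and 21 between the lines. Their standard errors ran from 0.0515 for bright genes to 0.458 for dim ones, so for the dim members a difference well above 0.5 would not have been detectable with these arrays.

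Relatives of these carriers under other symbols had a probe set of their own for 4 genes. Of these, 2 were called higher in the high FASN line and 3 in the low FASN line against control, and none lower. Ucp1, the uncoupling protein of brown fat, read 846 and 799 in the high FASN line, 185 and 232 in the low FASN line, and 6.23 and 10.3 in controls, and it is also one of the adipocyte markers above. Ucp3, the form of skeletal muscle and heart, read 556 and 531 in the high FASN line, 627 and 642 in the low FASN line, and 422 and 346 in controls, and was called higher by 0.49 (limma, adjusted p = 0.0149) and 0.71 (adjusted p = 0.00137). Mtch1, an outer membrane relative, was called higher in the low FASN line by 0.50 (adjusted p = 0.00138), and Mtch2 was called in no comparison. Other genes of mitochondrial transport had a probe set of their own for 19 of the 22 listed, all tested. In the high FASN line 2 were higher and 0 lower, and in the low FASN line 2 higher and 3 lower. Between the lines 3 read higher and 2 lower in the high FASN line. Over all tested probe sets 8.18% were higher and 6.18% lower in the high FASN line, and 13.5% and 10.8% in the low FASN line. Between the lines the shares were 9.69% and 8.87%. The counts among these 4 and 19 genes are not read as a result about either list. The 3 transport genes higher between the lines were Mpc1, a subunit of the pyruvate carrier, Micu2, a regulator of calcium uptake, and Vdac1, the outer membrane channel. Vdac1 read 15357 and 14309 in the high FASN line, 11331 and 11544 in the low FASN line, and 14053 and 13771 in controls. Under quantile normalization the counts between the lines became 2 higher and 3 lower. Timm9, a chaperone of carrier import, differed between the lines by -0.53, lower in the high FASN line (adjusted p = 0.0405).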

How the data were processed

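Hearts were profiled on 6 Affymetrix arrays. The table the authors deposited gives 1 intensity for each probe set on each array, not log-transformed. The submitters' processing notes name GCOS. For its version, algorithm and scaling target, nothing is given in the sources used. The deposited columns share a mean of 300.002 after trimming 2% at each end, so this scaling was kept. Of 45101 probe sets, 64 controls were set aside, and 34945 of the rest had 1 gene symbol in the supplied annotation, 932 several and 9160 none. Signals were analysed as log2(signal + 16), which understates changes of dim genes. Probe sets with a mean at or above the median were tested, 22519 in all. The 3 group means were fitted to all arrays with limma 3.58.1 in R 4.3.3 (eBayes, prior variance trended on intensity, with 3 residual and 6.43 prior degrees of freedom), and p-values are two-sided and Benjamini-Hochberg adjusted over all tested probe sets. The model was tested on simulated data. Precision is limited by having 2 arrays a group. The members, the role groups, the marker lists and the rule for named genes (every called member, a fixed panel, those next to the filter) were chosen with earlier results of these data known. Promoters were searched with Python 3.11.15 and figures drawn with matplotlib 3.10.9. The alternatives were 3 other scalings, pseudocounts of 1 and 64, no filter and a filter at the 75th percentile, no intensity trend, 4 arrays only, a replicate block, gene means, and each array left out.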

Additional observations from a re-analysis of the deposited data

Results flagged for a closer look

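The difference between the lines' departures from control is the direct test of the high against the low FASN line, and 6 carriers passed it. Slc25a28 differed by 0.53 on the log2 scale (limma, adjusted p = 0.0102), with -0.036 in the high and -0.57 in the low FASN line against control. Slc25a33 differed by -0.45 (adjusted p = 0.00354), with -0.96 and -0.51 in the same order. Slc25a36 differed by -0.38 (adjusted p = 0.0045), with -0.15 and 0.23. Slc25a4 differed by 0.30 (adjusted p = 0.0166), with 0.22 and -0.075, and Slc25a3 by 0.25 (adjusted p = 0.0218), with 0.18 and -0.070. Slc25a46 differed by 0.21 (adjusted p = 0.0267), with 0.012 and -0.20.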

How the results depend on the processing

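Slc25a33 kept its direction and its call in all 3 comparisons under all 17 alternatives (highest adjusted p = 0.0463), and Slc25a28 and Slc25a39 kept theirs in the low FASN line against control (highest adjusted p = 0.0496 and 0.0372). With quantile normalization the line difference of Slc25a3 turned to -0.039 and that of Slc25a4 to -0.030. With the mean of all probe sets of a gene, that of Slc25a3 turned to -0.014 and Slc25a17 in the low FASN line to -0.044, since a dim probe set enters the mean of each.

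The limma counts of carriers called moved as follows. In the high FASN line (4 called, 1 higher and 3 lower), leaving out the intensity trend gave 1 called, 0 higher and 1 lower. The higher count was 2 with cyclic loess, and 0 with median centring, no filter, only the 4 arrays compared, or gene means. At an unadjusted p below 0.05, 3 were higher without the trend, 3 with median centring, 5 with no filter, 5 with only 4 arrays and 3 with gene means. In the low FASN line (8 called, 2 higher and 6 lower), no filter and no trend each gave 5 called and 1 higher, gene means 1 higher, quantile normalization 5 higher and cyclic loess 4 higher. Between the lines (6 called, 4 higher and 2 lower), median centring and no filter each gave 3 called and 1 higher, quantile normalization and cyclic loess 2 higher, and no trend 1 called, 0 higher and 1 lower (5 higher at an unadjusted p below 0.05). Leaving out 1 array gave 2 to 5 called, 0 to 3 higher and 2 to 3 lower in the high FASN line, 4 to 10, 1 to 3 and 3 to 7 in the low FASN line, and 2 to 8, 0 to 6 and 1 to 2 between the lines.

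Over all probe sets the calls were 3234, 5475 and 4179 in this order. They became 1233, 3576 and 1449 without the trend, and ranged from 1411 to 3497, 2884 to 6486 and 1554 to 4184 with 1 array left out. Where a group was left with 1 array, it was assumed to vary like the others. The median difference of the tested carriers moved by less than 0.169 under every alternative. That value is the SD, over arrays of a group, of the carriers' median level on the log2 scale. It is a loose bound, because the medians of the 2 high FASN arrays lay far apart, at 8.34 and 8.73.

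The labels give the groups the same replicate numbers, but the numbers did not pair the samples (correlations of 0.0396, 0.0273 and 0.000398 between the groups' replicate differences). With the replicate block 4, 9 and 6 carriers were called. No background measure was used, so a dim member was known only by its low intensity.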
